A study of Sus scrofa with 9 samples.

Results

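The 200 probes described here gave a lower signal at 6 h and at 24 h after an oral dose of azide than before it, in whole blood of miniature pigs. They were chosen from the deposited values of 43566 probe rows. Of these, 14085 rows averaged 50 or more intensity units before feeding. For each of those rows a score was taken on the log2 scale: the lowest of the 3 values before feeding minus the highest of the 6 later values. A score above 0 means that the before-feeding values and the later values do not overlap. It was above 0 for 1084 rows (7.70%), and the 200 highest scores were kept. The opposite pattern, with all 6 later values above all 3 earlier ones, was met by 487 rows (3.46%). Because the lowering itself selected these probes, the changes against the time before feeding are given as a description without a test. The comparison of 24 h with 6 h was tested, since the choice treated those times alike, but it required both to be low and so limits how far they can differ.

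The animals were male specific-pathogen-free Clawn miniature pigs, and the RNA came from whole blood in PAXgene tubes, which fix RNA at the draw. There were 3 groups of 3 arrays: blood before feeding (0 h), blood 6 h after and blood 24 h after an oral dose of 300 µg/kg azide. The age is labelled as 7 months in one field but as 7 weeks in another. Whether a replicate number marks the same pig at each time is not labelled, and no undosed pigs were sampled at 6 or 24 h, so dose and time since the first draw cannot be told apart. The 3 arrays of each time share a slide of their own, so slide and time cannot be told apart either. Nothing in the labels says that the 3 samples of a time came from separate animals, and p-values then measure only the spread between these samples.

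Azide poisons mitochondrial respiration by binding cytochrome c oxidase. Whole blood RNA comes from neutrophils, monocytes, lymphocytes, platelets and immature red cells together, so the level of a transcript depends on which cells were drawn as well as on what each cell contains. In bulk blood, fewer cells of a type and less RNA per cell cannot be told apart. The arrays were 1-colour porcine arrays with 60-base probes, and their number limits the precision of every value below. Levels are given as the scanner's processed signal in percent of the 75th percentile signal of the same array, and changes as log2 differences between means of 3 arrays with their standard error (SE). A level compares a probe with itself across samples, since brightness also depends on the probe.

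The probes stand for at least 192 separate transcripts, because 8 transcripts were hit by 2 probes each. Most have no gene name in the array's annotation. A gene symbol was found for 17 probes (8.50%, against 11.2% of the 14085 rows over the minimum). Another 26 (13.0%, against 14.2%) resemble a mammalian protein, and 21 (10.5%, against 7.87%) resemble a protein of another kind of organism. There were 89 probes (44.5%, against 51.3%) known only as a cDNA or expressed sequence tag and 47 (23.5%, against 15.5%) described as unknown. Names ending in "-like" below mark probes named only through the protein match in the array's description. The array files give no chromosome position for the probes printed here.

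For the highest scores no gene is named, so the probe sequence is what identifies them. The 8 highest are printed here as the scanner files list them. Capitals mark the 46 bases that both probes of the spleen cDNA AK237794 share, and AK239625 and AK235345 are cDNA clones from thymus and ovary libraries.
TC272321: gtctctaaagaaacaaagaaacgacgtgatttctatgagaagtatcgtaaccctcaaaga
AK237794 first probe: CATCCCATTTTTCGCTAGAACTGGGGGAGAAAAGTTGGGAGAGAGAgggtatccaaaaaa
AK237794 second probe: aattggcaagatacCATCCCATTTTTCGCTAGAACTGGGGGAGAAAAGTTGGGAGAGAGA
AK239625: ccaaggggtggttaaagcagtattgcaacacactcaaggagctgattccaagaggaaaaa
TC298376: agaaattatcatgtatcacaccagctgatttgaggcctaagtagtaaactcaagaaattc
TC287957: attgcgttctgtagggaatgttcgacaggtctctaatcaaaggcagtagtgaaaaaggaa
AJ958205: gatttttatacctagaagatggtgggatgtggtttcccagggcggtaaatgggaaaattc
AK235345: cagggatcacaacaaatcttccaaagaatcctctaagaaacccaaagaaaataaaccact

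TC272321 had the highest score (0.94). Its level was 63.0, 70.2 and 54.6% before feeding, 19.9, 19.7 and 28.5% at 6 h and 27.3, 29.8 and 28.6% at 24 h. All 6 later samples lay close together, at about the same depth below the earlier ones, with changes of -1.48 ± 0.26 at 6 h and -1.13 ± 0.26 at 24 h (log2 ± SE). The first AK237794 probe read 50.1, 91.0 and 53.9% before feeding, 18.1, 28.8 and 9.33% at 6 h and 24.1, 27.2 and 18.5% at 24 h. The second read 53.2, 78.3 and 49.3% before feeding, 11.5, 19.8 and 4.91% at 6 h and 22.2, 29.1 and 14.3% at 24 h. Both probes of this transcript put replicate 2 highest and replicate 3 lowest at each later time, and the second probe was not well above background on any array at 6 h. Against the detection limit of the 6 h arrays it was at least 4.02-fold lower at 6 h than before feeding. AK239625 was a brighter probe, with 2074, 2836 and 2185% before feeding, 1257, 1278 and 719% at 6 h and 898, 1096 and 757% at 24 h.

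Across all 200 probes the median change was -1.07 at 6 h (quartiles -1.24 and -0.87) and -0.91 at 24 h (quartiles -1.15 and -0.77). Over all 19780 probes tested, the medians were 0.05 and -0.01. A lowering of 2-fold or more was seen in 124 of the 200 at 6 h, in 77 at 24 h and in 59 at both times. The strongest changes were -2.50 at 6 h (the second AK237794 probe) and -1.79 at 24 h (DDX50-like). A lower mean at both times was found for 32.4% of all probes tested. On the scanner scale, 196 of the 200 kept all 3 before-feeding values above all 6 later ones, against 5.96% of all probes tested. The rule itself fixes both counts for the 200. The 4 exceptions were HCST, CJ009409, AK235633 and DN102066, all with ranks between 173 and 196.

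The lowering was not the same on every array. Relative to the mean before feeding, the median of the 200 probes was 0.00, 0.10 and -0.12 on the 3 arrays before feeding. It was -0.76, -0.80 and -1.57 on the 3 arrays at 6 h and -0.88, -0.87 and -1.001 at 24 h. Replicate 3 at 6 h stood far below the other arrays, while the 24 h arrays lay close together. Replicate 3 at 6 h was the lowest of the 6 later arrays for 137 of the 200 probes (68.5%), against 20.1% of all probes tested. It was the highest of the 6 for only 3 of the 200. Without that array the median change at 6 h was -0.81 in place of -1.07. That array also had the highest neutrophil and monocyte marker levels. The summed level of 7 neutrophil genes (of 25 listed and 8 on the array) lay between 42591 and 62280% before feeding, between 94049 and 238990% at 6 h and between 40047 and 51870% at 24 h, with the top value in replicate 3 at 6 h. For 12 monocyte genes (of 20 listed and 14 on the array) the sums lay between 24221 and 29659% before feeding, between 51457 and 132560% at 6 h and between 27326 and 57179% at 24 h. PR39 of the neutrophil list, and VCAN and FCGR1A of the monocyte list, were not well above background on all 3 arrays of any time. Such sums are led by their brightest probes. As mean log2 levels, the 7 neutrophil genes lay between 3.23 and 3.99 before feeding and between 4.77 and 7.20 at 6 h. At 24 h they lay between 3.78 and 4.16. There 4 of the 7 were higher and 3 lower than before feeding, with a median change of 0.47. The part of these markers in the lowering was not tested.

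**Figure D1:**
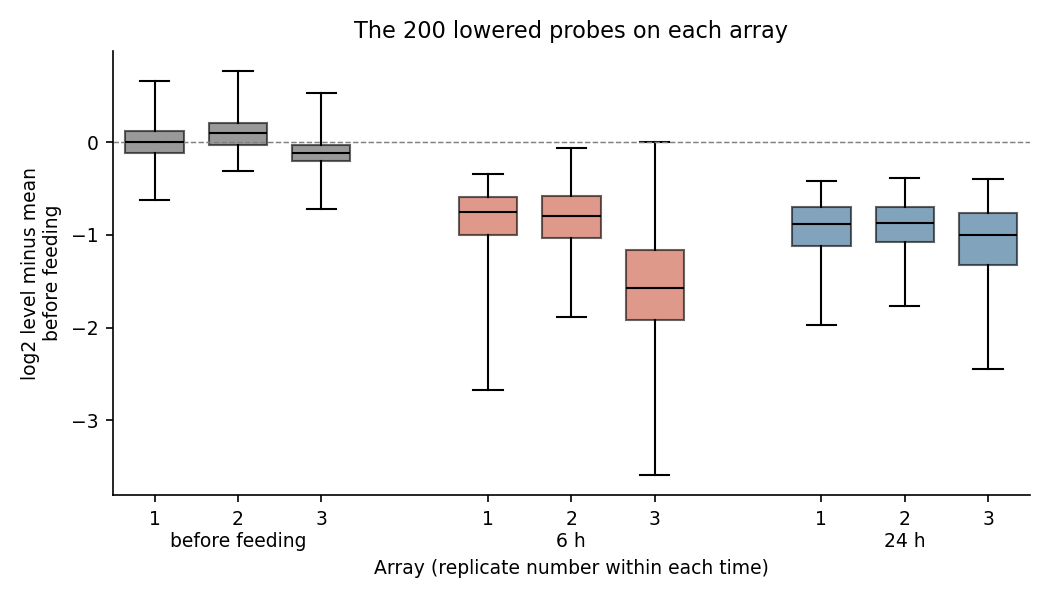
Each box shows the 200 probes on 1 array, as log2 level minus the probe's own mean before feeding; the line is the median, the box the quartiles and the whiskers the full range. The medians are near 0 before feeding, -0.76, -0.80 and -1.57 at 6 h, and -0.88, -0.87 and -1.001 at 24 h.

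The result rests on scaling each array to its own signal. Under 5 other scalings tied to the probe signals, the median of the 200 stayed below 0 at both times. When arrays were instead centred on their spike-in control spots, the median of all probes tested moved to 0.25 at 6 h and 0.94 at 24 h. The median of the 200 was then -0.87 at 6 h and 0.037 at 24 h, and only 16 of the 200 kept the gap between earlier and later arrays. Spike-in centring shifts all probes of an array by the same amount. The distance between the 200 and all probes is therefore fixed under it and gives no check of the lowering. The share of spots well above background lay between 39.9 and 46.6% before feeding, between 42.4 and 47.8% at 6 h and between 45.5 and 56.6% at 24 h. All 200 probes were well above background on all 3 arrays before feeding, 188 on all 3 at 6 h and 198 on all 3 at 24 h.

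**Figure D2:**
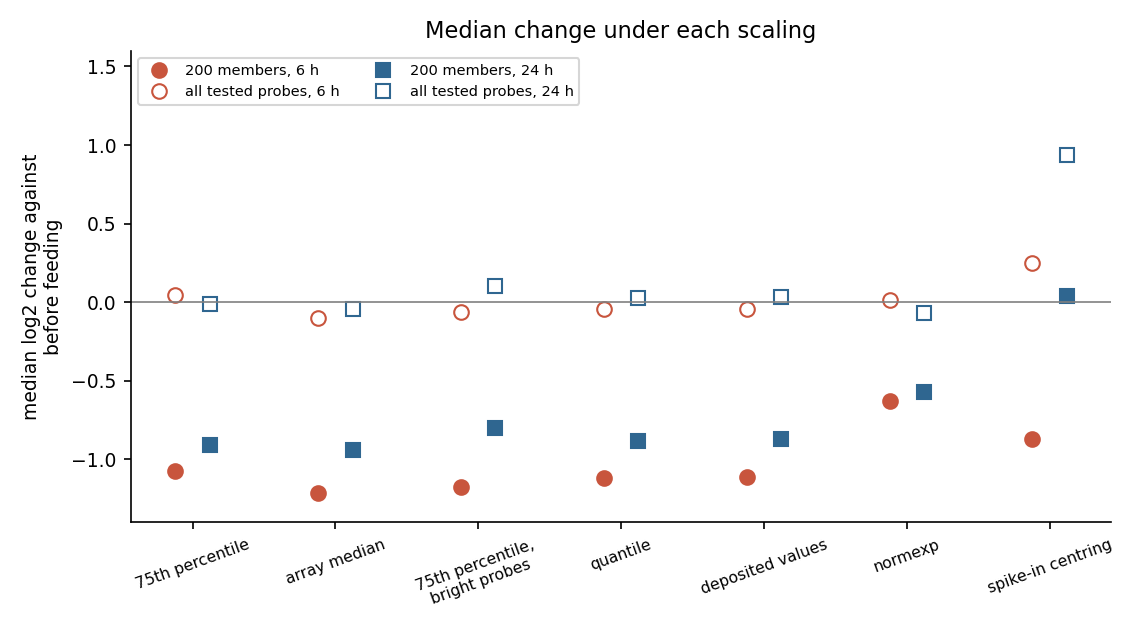
Median log2 change against the time before feeding under 7 scalings, for the 200 probes (filled) and all probes tested (open), at 6 h (circles) and 24 h (squares). Spike-in centring is the only one of these scalings under which the 200 probes' median at 24 h (0.037) lies above 0, and all probes' median then lies at 0.94.

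Among the probes with a recognisable gene, 37 were sorted by known role, after their values had been seen. The first group, labelled lymphocyte receptors and effectors, holds 6 probes, with median changes of -0.94 at 6 h and -0.88 at 24 h. The label is loose, since it also covers a gp130-like probe, for a receptor chain that is not particular to lymphocytes. LTA encodes lymphotoxin alpha, a cytokine of activated lymphocytes. Its level was 82.3, 81.3 and 84.0% before feeding, 52.4, 54.6 and 44.7% at 6 h and 49.2, 38.9 and 39.5% at 24 h. The samples of each time were tightly grouped and all later ones were clearly below the earlier ones. CD3G encodes a chain of the T cell receptor complex. Its probe read 85.1, 51.0 and 55.1% before feeding, 29.5, 38.0 and 10.8% at 6 h and 30.8, 40.5 and 34.1% at 24 h. The groups did not overlap, and replicate 3 at 6 h was the lowest by a wide margin. STAT4 relays interleukin signals that drive T helper cell and natural killer responses. It stood at 499, 479 and 475% before feeding, 222, 374 and 130% at 6 h and 349, 324 and 312% at 24 h. The 24 h samples were closely grouped and the 6 h samples were spread on both sides of them.

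SERPINB9, an inhibitor that protects cytotoxic cells from their own granzyme B, read 199, 198 and 216% before feeding, 121, 132 and 59.2% at 6 h and 141, 130 and 103% at 24 h. The other SERPINB9 probe read 155, 195 and 212% before feeding and 145, 215 and 106% at 6 h, which overlap. Its log2 changes were -0.32 ± 0.31 at 6 h and -0.47 ± 0.31 at 24 h, beside -1.06 and -0.72 for the SERPINB9 member. A probe like gp130, the shared receptor chain of the interleukin 6 family, read 133, 80.7 and 80.2% before feeding, 63.7, 44.9 and 55.0% at 6 h and 48.4, 38.7 and 33.3% at 24 h. Its mean was lowest at 24 h, unlike CD3G and STAT4. HCST encodes an adaptor that signals for the activating receptor NKG2D on natural killer and T cells. Its level was 8130, 10008 and 8666% before feeding, 6568, 8532 and 8878% at 6 h and 4714, 5180 and 4091% at 24 h. On this scale the 6 h samples overlapped those before feeding (-0.17 ± 0.26), and the lowering lay at 24 h (-0.94 ± 0.26). HCST met the rule on the deposited values, with a score of 0.33.

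The listed T cell genes were set beside this group, each by its brightest probe and without CD3G, which is among the 200. Of 30 listed, 13 were on the array and 11 were tested, and CD40LG and CTLA4 were not well above background on all 3 arrays of any time. At 6 h 8 of the 10 genes other than CD3G lay lower and 2 higher than before feeding, with a median change of -0.71. At 24 h 5 lay lower and 5 higher, with a median of -0.043. None passed an adjusted p of 0.05 in either direction by limma at 6 h, where 5 of all 19780 probes tested did (0.0253%), or at 24 h, where 0 of 19780 did. At an unadjusted p under 0.05, 4 of the 10 were lower and 1 higher at 6 h, and 1 was lower at 24 h. Over all probes tested, that threshold was passed by 25.5% at 6 h (10.9% lower, 14.7% higher) and by 13.9% at 24 h (8.56% lower, 5.32% higher). A lower mean than before feeding was found for 9374 of the 19780 probes at 6 h and for 10067 at 24 h. These all-probe values also stand beside the counts of the gene lists below. CD3D, another chain of the receptor complex and not among the 200, had log2 changes of -1.30 ± 0.45 at 6 h and -0.67 ± 0.45 at 24 h. CD8A, the coreceptor of cytotoxic T cells, had log2 changes of -1.16 ± 0.47 at 6 h and 0.05 ± 0.47 at 24 h. No gene of the neutrophil, monocyte, natural killer and cytotoxic, B cell or platelet lists was among the 200. These lists held 7, 12, 4, 1 and 5 tested genes, in that order. The array held only 4 of 18 listed natural killer and cytotoxic genes and 1 of 20 listed B cell genes. The 200 are 1.42% of the rows over the minimum, so lists this short would seldom hold a member. Nothing is read from the absence of members here or in the lists below.

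**Figure D3:**
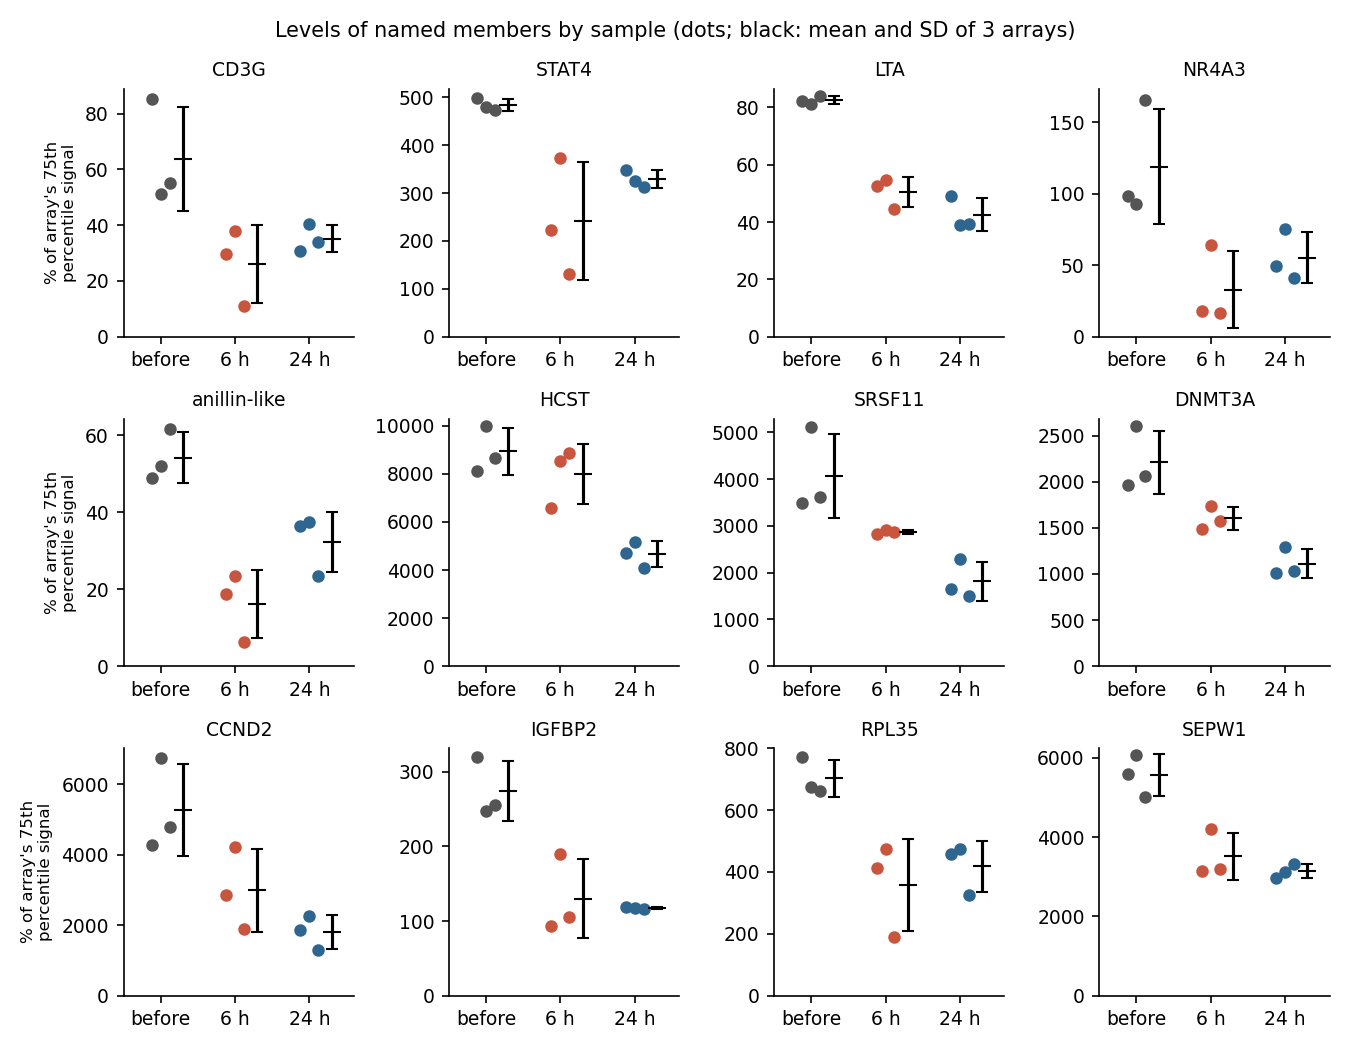
Levels of 12 named probes in the 9 samples, in percent of the array's 75th percentile signal on axes that start at 0, with the mean and SD of 3 arrays in black. CD3G, STAT4, NR4A3 and the anillin-like probe have their lowest sample at 6 h, whereas HCST, SRSF11, DNMT3A and CCND2 are lowest at 24 h.

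The second group holds 6 probes for kinase, calcium and hormone signalling, with medians of -1.41 at 6 h and -1.16 at 24 h. Of these 6, 2 read the same IGFBP2 transcript. NR4A3 encodes an orphan nuclear receptor of the immediate early genes, which cells switch on quickly after a stimulus. Its level was 98.7, 92.9 and 165% before feeding, 18.0, 64.2 and 16.8% at 6 h and 49.2, 75.2 and 41.3% at 24 h. At 6 h, 2 samples were far below all others and replicate 2 was within the 24 h range, and the changes were -2.10 ± 0.50 and -1.10 ± 0.50. A probe like the gamma catalytic subunit of calcineurin, the calcium-dependent phosphatase that activates NFAT in T cells, read 54.4, 80.4 and 49.6% before feeding, 34.8, 23.2 and 5.39% at 6 h and 36.3, 28.4 and 36.2% at 24 h. A probe like neurocalcin delta, a neuronal calcium sensor protein, read 224, 271 and 237% before feeding, 104, 122 and 40.2% at 6 h and 100.5, 158 and 67.2% at 24 h. In both, replicate 3 at 6 h was the lowest of the 9 samples. PPP3CA, for another calcineurin catalytic subunit, read 873, 578 and 621% before feeding and was not lowered. Its log2 changes were 0.59 ± 0.28 at 6 h and 0.08 ± 0.28 at 24 h. PPP3CB, for a further catalytic subunit, had log2 changes of 0.63 ± 0.74 at 6 h and 0.55 ± 0.74 at 24 h. The lowering of the calcineurin A gamma-like probe therefore does not stand for calcineurin transcripts in general.

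PRKACB, a catalytic subunit of the cyclic AMP-dependent protein kinase, read 281, 323 and 274% before feeding, 201, 123 and 90.5% at 6 h and 189, 197 and 207% at 24 h. IGFBP2, a binding protein of insulin-like growth factors, was hit by 2 probes that share 54 bases, printed here with the shared run in capitals.
IGFBP2 first member: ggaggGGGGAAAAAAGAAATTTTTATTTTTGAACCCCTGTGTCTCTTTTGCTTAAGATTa
IGFBP2 second member: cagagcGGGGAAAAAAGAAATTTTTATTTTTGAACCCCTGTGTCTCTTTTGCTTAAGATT
The first read 332, 231 and 268% before feeding, 105, 187 and 84.8% at 6 h and 107, 118 and 131% at 24 h. The second read 320, 248 and 255% before feeding, 93.3, 190 and 105% at 6 h and 119, 117 and 117% at 24 h. Both had their highest later sample in replicate 2 at 6 h, and their mean changes at 24 h were the same (-1.21). Since they share most of their bases, they are 2 readings of 1 transcript and not separate evidence. Of 56 listed kinase, phosphatase and small GTPase genes tested, PRKACB and STAT4 were the only ones among the 200. Of the other 54, 15 lay lower and 39 higher at 6 h (median 0.43), and 23 lower and 31 higher at 24 h (median 0.063). None of the 54 passed an adjusted p of 0.05 by limma; at an unadjusted p under 0.05, 3 were lower and 15 higher at 6 h, and 1 was lower and 3 higher at 24 h.

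Chromatin and transcription were represented by 4 probes, with median changes of -0.83 at 6 h and -0.81 at 24 h. DNMT3A, which sets new DNA methylation marks, read 1963, 2603 and 2063% before feeding, 1491, 1740 and 1578% at 6 h and 1015, 1290 and 1028% at 24 h. Its 3 groups did not overlap and formed a descending series. A probe like querkopf, a histone acetyltransferase of the MYST family, read 827, 629 and 651% before feeding, 294, 456 and 253% at 6 h and 391, 422 and 442% at 24 h. One like the p62 subunit of TFIIH, a general transcription and DNA repair factor, read 68.6, 91.6 and 82.0% before feeding, 55.7, 32.0 and 53.3% at 6 h and 36.2, 42.3 and 54.8% at 24 h. The fourth, like trans-acting regulatory factor 1, had log2 changes of -0.85 ± 0.31 at 6 h and -0.43 ± 0.31 at 24 h, the smallest change of the 200 at 24 h. Of 18 other chromatin and transcription genes listed, none was among the 200, and 11 lay higher at 6 h and 9 at 24 h. None passed an adjusted p of 0.05 by limma; at an unadjusted p under 0.05, 8 were higher at 6 h, and 1 was lower and 1 higher at 24 h.

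RNA processing held the strongest 24 h change of the set. A probe like DDX50, a nucleolar RNA helicase, read 90.2, 83.7 and 64.9% before feeding, 42.6, 26.0 and 11.6% at 6 h and 23.7, 23.1 and 21.5% at 24 h. Its 24 h samples were nearly equal to each other, and it had log2 changes of -1.75 ± 0.42 at 6 h and -1.79 ± 0.42 at 24 h. A probe like FUSIP1, a splicing repressor of the SR protein family, read 548, 418 and 314% before feeding, 133, 201 and 94.8% at 6 h and 143, 160 and 183% at 24 h. One like EIF2C3, an Argonaute protein that binds small RNAs, read 436, 399 and 381% before feeding, 273, 197 and 189% at 6 h and 272, 210 and 282% at 24 h. It had log2 changes of -0.90 ± 0.27 at 6 h and -0.68 ± 0.27 at 24 h.

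SRSF11, an SR-type splicing factor, was hit by 2 of the 200 probes and by 3 others. The 2 members share no run of 20 bases with each other, and an unselected probe that did not follow them is printed beside them.
SRSF11 first member: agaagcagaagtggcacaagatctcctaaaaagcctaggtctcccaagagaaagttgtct
SRSF11 second member: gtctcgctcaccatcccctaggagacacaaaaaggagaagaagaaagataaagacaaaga
SRSF11 other probe: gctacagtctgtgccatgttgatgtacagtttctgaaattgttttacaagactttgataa
The first member read 3492, 5113 and 3628% before feeding, 2817, 2903 and 2866% at 6 h and 1657, 2286 and 1503% at 24 h. The second read 3322, 4472 and 3322% before feeding, 2588, 2517 and 2654% at 6 h and 1596, 1989 and 1436% at 24 h. Both stood lower at each later time, with 6 h samples that hardly differed from each other and no overlap between any 2 times. The other printed probe read 1006, 332 and 763% before feeding, 331, 511 and 470% at 6 h and 1014, 709 and 1771% at 24 h, so its 24 h samples were not low. The remaining pair of probes had log2 changes of -0.14 ± 0.26 and -0.44 ± 0.27 at 6 h and of -0.52 ± 0.26 and -0.86 ± 0.27 at 24 h. Of 15 other listed splicing and RNA-binding genes tested, 10 lay lower at 6 h (median -0.078) and 9 at 24 h (median -0.062). None passed an adjusted p of 0.05 by limma; at an unadjusted p under 0.05, 1 was lower and 1 higher at 6 h, and 1 was higher at 24 h.

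The ribosome and mitochondrion group held 5 probes, with medians of -0.64 at 6 h and -0.75 at 24 h. RPL35, a protein of the large cytosolic ribosomal subunit, read 772, 675 and 661% before feeding, 413, 473 and 191% at 6 h and 458, 473 and 324% at 24 h. A probe like RPL27 of the same subunit read 392, 379 and 356% before feeding, 263, 275 and 192% at 6 h and 197, 213 and 205% at 24 h. In both, the before-feeding samples were tight and replicate 2 at 6 h was the highest later sample. The other RPL35 probe was far brighter and did not keep that gap. It read 102081, 117020 and 84386% before feeding and 59525, 108426 and 60987% at 6 h. Its log2 changes were -0.45 ± 0.31 at 6 h and -1.02 ± 0.31 at 24 h, beside -1.07 and -0.76 for the RPL35 member. MRPL32, of the mitochondrial ribosome, read 2611, 3049 and 2306% before feeding, 1730, 1905 and 1547% at 6 h and 1499, 1547 and 1663% at 24 h. The CHCHD7-like probe and the expressed sequence tag CV874782 share 51 bases, shown in capitals, and so read 1 transcript.
CHCHD7-like member: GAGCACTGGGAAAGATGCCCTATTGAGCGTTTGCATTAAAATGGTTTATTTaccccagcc
CV874782 member: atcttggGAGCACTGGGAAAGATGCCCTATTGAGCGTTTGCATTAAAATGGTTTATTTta
Of 31 listed cytosolic ribosomal protein genes tested, RPL35 and RPL27 are the ones with a probe named above, and both are left out of the counts here. Of the other 29, 28 lay lower at 6 h (median -0.65) and 27 at 24 h (median -0.62). None passed an adjusted p of 0.05 by limma. At an unadjusted p under 0.05, 16 were lower at 6 h and 12 at 24 h, and none was higher. Over all probes tested, 10.9% were lower at that threshold at 6 h and 8.56% at 24 h. As a mean log2 level, all 31 genes gave 8.25, 8.12 and 8.15 before feeding and 7.53, 7.65 and 7.66 at 24 h. At 6 h they gave 7.24, 7.98 and 7.24, so replicate 2 stood nearest to the earlier samples. For 19 respiratory chain and ATP synthase genes, 15 lay lower at 6 h (median -0.45) and 17 at 24 h (median -0.49). None of these 19 was among the 200 or passed an adjusted p of 0.05 by limma, and 4 were lower at an unadjusted p under 0.05 at each later time.

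Cell cycle and division were represented by 4 probes. CCND2, the D-type cyclin that takes lymphocytes into the cycle, read 4272, 6753 and 4797% before feeding, 2864, 4224 and 1886% at 6 h and 1865, 2263 and 1287% at 24 h. Replicate 2 was the highest and replicate 3 the lowest at both later times, and the changes were -0.87 ± 0.36 at 6 h and -1.56 ± 0.36 at 24 h. The anillin-like probe, for a scaffold of the cleavage furrow, read 48.8, 52.0 and 61.5% before feeding, 18.8, 23.5 and 6.22% at 6 h and 36.3, 37.4 and 23.3% at 24 h. Its low 6 h signal was well above background on 2 of the 3 arrays. A Cep72-like probe, for a centrosomal protein, read 57.7, 56.1 and 60.5% before feeding, 16.4, 37.5 and 21.8% at 6 h and 29.4, 35.7 and 34.6% at 24 h. An APC11-like probe, for the RING subunit of the anaphase-promoting complex, had log2 changes of -1.11 ± 0.27 at 6 h and -0.79 ± 0.27 at 24 h. Of 27 listed dividing-cell genes, 10 were on the array and 9 were tested, AURKA being not well above background. Of the 8 other than CCND2, 7 lay lower at 6 h (median -0.93) and 7 at 24 h (median -0.47). None passed an adjusted p of 0.05 by limma; at an unadjusted p under 0.05, 4 were lower and 1 higher at 6 h, and 1 was lower at 24 h.

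The last 7 probes with a role belong to metabolism and protein folding. SEPW1, a small selenoprotein with a role in redox balance, was hit by 2 probes that share 55 bases. The brighter read 5577, 6076 and 5015% before feeding, 3145, 4191 and 3204% at 6 h and 2969, 3115 and 3321% at 24 h. Its partner had log2 changes of -0.76 ± 0.25 at 6 h and -0.80 ± 0.25 at 24 h, close to -0.67 ± 0.25 and -0.82 ± 0.25 for the first. ADSS, an enzyme of AMP synthesis, read 111, 142 and 90.6% before feeding, 63.4, 45.5 and 48.0% at 6 h and 49.9, 56.0 and 64.7% at 24 h. A probe like reticulocalbin 2, a calcium-binding protein of the endoplasmic reticulum, read 281, 246 and 198% before feeding, 129, 114 and 69.3% at 6 h and 119, 95.3 and 98.3% at 24 h. The LASS5-like probe, for a ceramide synthase, had the most even lowering of the group: 130, 146 and 141% before feeding, 90.1, 87.1 and 94.7% at 6 h and 80.4, 95.4 and 97.5% at 24 h. DNAJC13-like, for a J-domain cochaperone of endosomes, was the dimmest of the 200 before feeding, at 33.9, 78.8 and 37.2%, and read 28.3, 22.0 and 28.6% at 6 h and 22.1, 22.4 and 21.7% at 24 h. One more probe in the top 25, like the human protein C19orf15, was given no role, and had log2 changes of -1.32 ± 0.40 at 6 h and -1.27 ± 0.40 at 24 h.

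**Figure D4:**
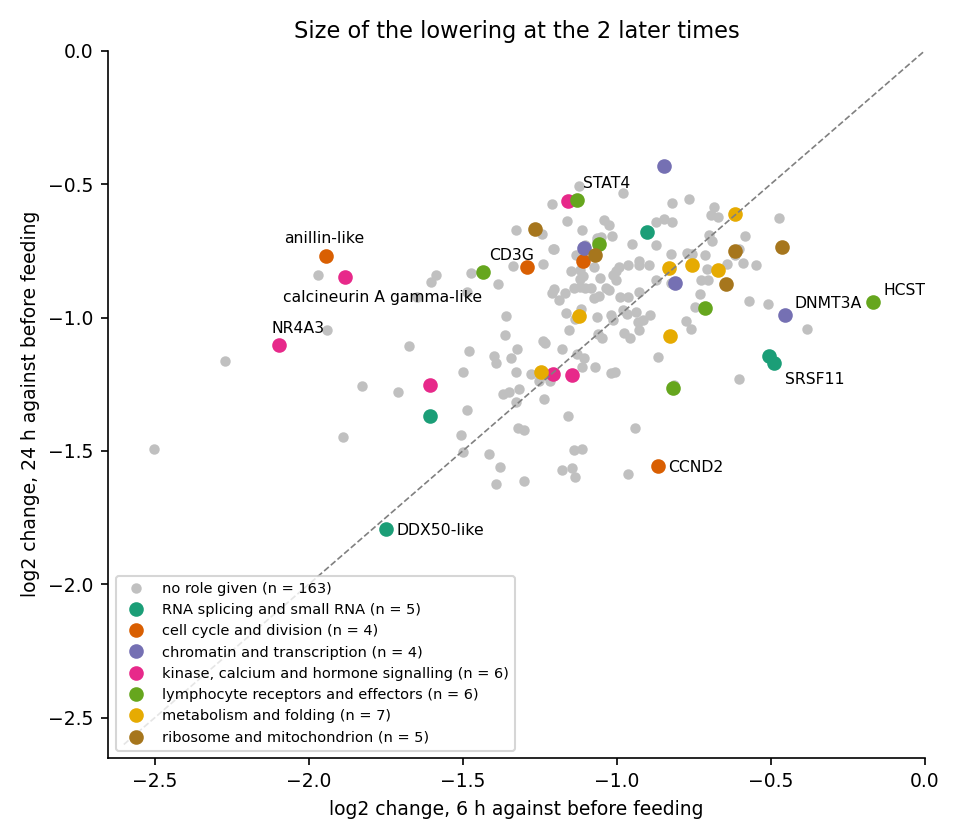
Log2 change at 24 h (vertical) against log2 change at 6 h (horizontal), both against the time before feeding, for the 200 probes, coloured by role; the dashed line marks equal changes. HCST, SRSF11, DNMT3A and CCND2 lie below the line, with the larger lowering at 24 h, and anillin-like, calcineurin A gamma-like, NR4A3 and CD3G lie above it; both axes share the before-feeding arrays.

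The time course after 6 h was tested with limma across all 19780 probes. No probe passed an adjusted p of 0.05 for 24 h against 6 h (0% of those tested), among the 200 or elsewhere. At an unadjusted p under 0.05, 7 of the 200 (3.5%) differed between 24 h and 6 h, 4 lower and 3 higher at 24 h, against 21.6% of all probes (13.6% lower, 7.97% higher). The choice kept probes that were low at both times and so left out large differences between them, and nothing is read from how the 200 compare with all probes in these counts or in those that follow. The median difference of the 200 was 0.10 (range -0.77 to 1.17), against -0.09 for all probes. Of the 200, 126 (63.0%) had the higher mean at 24 h, against 43.7% of all probes. That majority rested on replicate 3 at 6 h. Without it 61 of the 200 (30.5%) had the higher mean at 24 h, against 41.3% of all probes, and the median difference was -0.14. All 3 samples at 24 h lay above all 3 at 6 h for 5 of the 200, against 10% of all probes. They lay below for 9 of the 200, against 16.5% of all probes.

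The lowest differences among the named probes were those of HCST, CCND2 and both SRSF11 probes. HCST was lower at 24 h than at 6 h in all 3 against all 3 samples, by -0.77 ± 0.26 (limma adjusted p = 0.143). SRSF11 differed by -0.68 ± 0.28 and -0.64 ± 0.26 (limma adjusted p = 0.194 for each), also without overlap. CCND2 differed by -0.69 ± 0.36 (limma adjusted p = 0.295), and its samples overlapped. At the other end, the anillin-like probe was higher at 24 h by 1.17 ± 0.46 (limma adjusted p = 0.181), the calcineurin A gamma-like probe by 1.03 ± 0.57 (limma adjusted p = 0.318), NR4A3 by 0.99 ± 0.50 (limma adjusted p = 0.278) and CD3G by 0.60 ± 0.44 (limma adjusted p = 0.454). None of these passed the threshold, and a p that misses it does not show that 6 h and 24 h were alike. With spike-in centring, under which the median difference of all probes between 24 h and 6 h is 0.65 in place of -0.09, the differences of CCND2 and SRSF11 turn positive. With normexp, another background correction, those of CD3G (-0.16) and the calcineurin A gamma-like probe (-0.022) turn negative.

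The arrays carry other probes for some of these transcripts, which gives a second reading of the same samples. Of the 200, 45 had at least 1 other probe for the same transcript or gene, and 12 of them had a partner among the 200. The other 49 probes were not selected, and 41 of them were tested, while the others were too dim on at least 1 array of every time. Of these 41, 38 were lower at 6 h, 32 at 24 h and 31 (75.6%) at both times, and 2 were higher at both, against 32.4% of all probes tested that were lower at both times. Their median changes were -0.46 at 6 h and -0.42 at 24 h, smaller than those of the 200, which were picked for large changes. The count was also 31 without replicate 3 at 6 h. Some of the 41 overlap a member, sharing 54 bases for HCST, 53 for DNMT3A and 50 for EW094214. Each of these was lower at both times, and as near-copies of a member they are no separate reading. The 41 are also not all separate genes, since SRSF11 and CCND2 have more than 1 probe among them. All 41 are readings of the same 9 samples and arrays, so they bear on the probes and not on the spread between pigs.

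Overlapping probes gave near-equal values. The HCST and DNMT3A members each overlap another probe, and DNMT3A has a further probe elsewhere; capitals mark the shared runs of 54 and 53 bases.
HCST member: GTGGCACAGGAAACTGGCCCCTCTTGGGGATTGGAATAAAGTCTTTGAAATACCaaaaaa
HCST other probe: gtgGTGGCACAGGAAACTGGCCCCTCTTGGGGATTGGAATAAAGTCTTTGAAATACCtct
DNMT3A member: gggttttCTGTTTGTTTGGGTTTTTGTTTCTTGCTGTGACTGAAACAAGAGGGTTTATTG
DNMT3A overlapping probe: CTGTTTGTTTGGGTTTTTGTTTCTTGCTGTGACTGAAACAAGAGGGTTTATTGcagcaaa
DNMT3A separate probe: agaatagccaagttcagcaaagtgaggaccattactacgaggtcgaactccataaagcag
The other HCST probe had log2 changes of -0.16 ± 0.26 at 6 h and -0.89 ± 0.26 at 24 h, beside -0.17 ± 0.26 and -0.94 ± 0.26 for the member. The overlapping DNMT3A probe had log2 changes of -0.30 ± 0.25 and -0.98 ± 0.25, beside -0.46 ± 0.25 and -0.99 ± 0.25. The separate DNMT3A probe read 101, 249 and 196% before feeding, 222, 160 and 176% at 6 h and 116, 140 and 107% at 24 h, with groups that overlapped and a change of -0.50 ± 0.35 at 24 h. Both other CCND2 probes were also lowest at 24 h, at -0.63 ± 0.33 and -0.99 ± 0.33, and at -0.33 ± 0.33 and -0.20 ± 0.33 at 6 h.

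For some genes the probes disagreed. The CD3G member and the other CD3G probe share no run of 20 bases.
CD3G member: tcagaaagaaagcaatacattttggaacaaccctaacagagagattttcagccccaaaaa
CD3G other probe: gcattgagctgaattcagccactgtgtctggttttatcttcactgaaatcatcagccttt
The other CD3G probe read 2407, 863 and 1690% before feeding, 337, 1252 and 197% at 6 h and 1091, 1334 and 1653% at 24 h. It was low in 2 of 3 samples at 6 h (-1.80 ± 0.61), while its 24 h samples lay within the range before feeding (-0.18 ± 0.61), unlike the member's (-0.83 ± 0.44). The probe matching the carbonic anhydrase-related protein XI had log2 changes of -0.83 ± 0.30 at 6 h and -0.82 ± 0.30 at 24 h, but the CA11 probe had log2 changes of 0.73 ± 0.53 and 0.48 ± 0.53. The other ADSS probe had log2 changes of -0.77 ± 0.30 at 6 h and 0.11 ± 0.30 at 24 h. The other NR4A3 probe was not well above background on any array and gives no second reading.

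**Figure D5:**
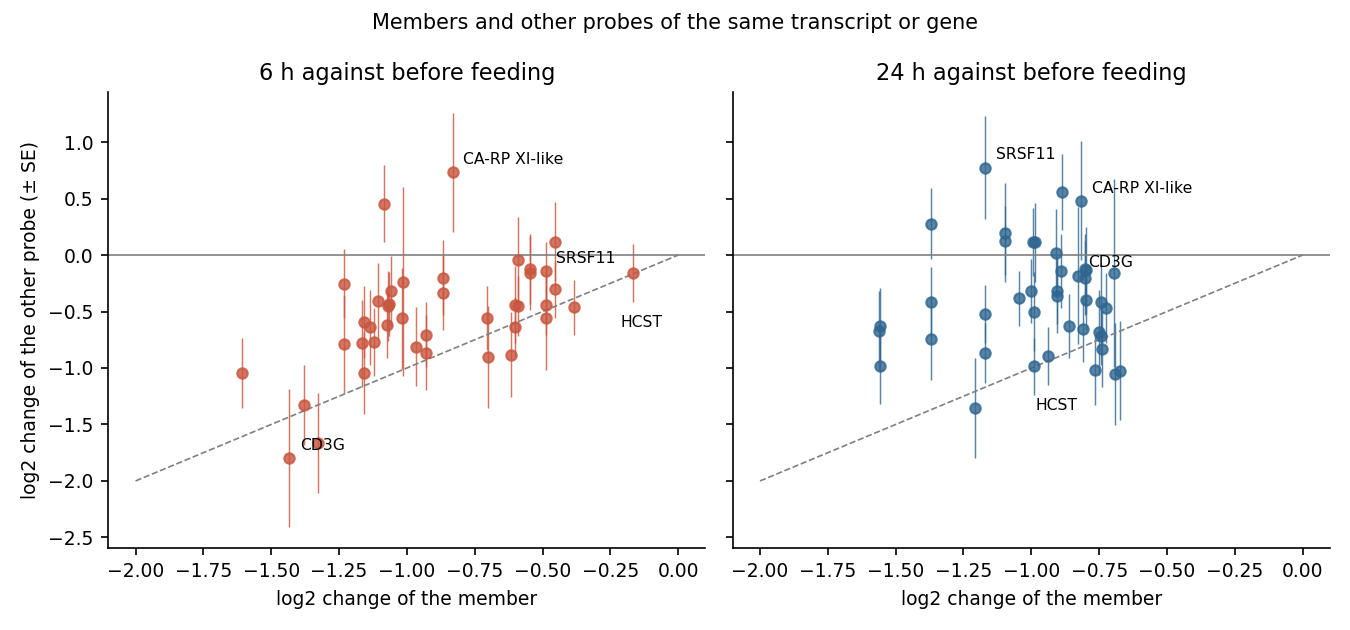
Log2 change (± SE) of 41 other probes of the same transcripts against that of the member they belong to, at 6 h (left) and 24 h (right); the dashed line marks equal changes and the horizontal line no change. Most points lie between those lines: 38 of 41 are below 0 at 6 h and 32 at 24 h, and the labelled SRSF11 and CA-RP XI-like points lie above 0 at 24 h.

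The probe sequences of the 200 were set beside those of the rows over the minimum, and the differences were not tested. Their median GC content was 40.0%, against 38.3% for the rows over the minimum. The letters ATTTA, the core of AU-rich elements that destabilise mRNAs, occurred in 11 of the 200 probes (5.50%), against 10.2% of the rows over the minimum, and the reverse complement TAAAT in 28 (14.0%), against 14.8%. The polyadenylation signal letters AATAAA occurred in 27 (13.5%), against 18.8%, and the reverse complement TTTATT in 14 (7.00%), against 5.28%. ATTTA and TTTATT can share letters in one probe, as can AATAAA and TAAAT, and a 60-base probe is a small window of a transcript. Among the 34 probes from cDNA clones whose name gives a library, 12 (35.3%) came from lymphoid libraries, against 28.8% of such rows over the minimum. The median deposited level before feeding was 221 units (range 51.3 to 15967), against 280 units for all rows over the minimum.

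At the edge of the choice the values hardly changed. The last probes taken were AK240596, TC285845 and IGFBP2, with scores of 0.3078, 0.3077 and 0.3075. The first probes left out were BX916143, TC243676 and BQ604517, with scores of 0.3067, 0.3054 and 0.3053. IGFBP2 averaged 275 deposited units before feeding, 125 at 6 h and 120 at 24 h. BX916143 averaged 1070 deposited units before feeding, 582 at 6 h and 584 at 24 h. Scoring the scanner values in place of the deposited ones would share 161 of 200 probes (80.5%) with the choice described here.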

How the data were processed

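The deposited series-wide values, an intensity per probe and array, share 1 maximum (210560) and similar medians (about 11.4) across arrays, and their ranks follow each array's own scanner file; their normalization was not stated in the labels or headers. The scanner files hold background-corrected processed intensity, per the file headers, made with Feature Extraction 10.5.1.1; the submitters' processing notes name version 9.5.3.1. Controls and outlier-flagged spots were left out, spots of one probe averaged, and log2 of the processed signal was centred on each array's 75th percentile. Of 43603 probes, 19780 were tested, namely those well above background in every sample of 1 or more times, with limma 3.58.1 (R 4.3.3; 3 groups in 1 fit, lmFit and eBayes, Benjamini-Hochberg over all 19780). The fit left 6 residual degrees of freedom. The code was tested on simulated data.

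The score and the 200 probes came from the deposited values, and levels and changes from the scanner values. Gene symbols came from the scanner files, updated through the reference tables, and cover 3170 probes (7.27%). The members, roles and gene lists were chosen with earlier results of these data known. List counts leave out genes with a member probe and 3 genes matched by symbol start alone, left out after their values were seen. Named were every member among the 25 highest scores with a symbol or an informative mammalian description, up to 5 members of each gene list, the 4 named members with the largest and the 4 with the smallest difference between 24 h and 6 h, the 3 brightest and 3 dimmest before feeding, other probes of a member's gene, and the rows at the edge of the choice; further members with a recognisable gene were added after their values were seen. Same-numbered arrays did not deviate together throughout (correlations from -0.20 to 0.64), so the replicate number was not used as a block. Alternatives covered 6 other scalings or value sources, 2 filters, 4 fits and the omission of each array. A result for 1 probe that the naming rule covers is not reported here.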

Additional observations from a re-analysis of the deposited data

How the results depend on the processing

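The gap between earlier and later arrays held for 196 of the 200 probes (196 to 198 without 1 array) and for 16 with spike-in centring. The median change at 6 h was -1.07 (-1.22 to -0.81 without 1 array) and -0.63 with normexp; at 24 h it was -0.91 (-0.97 to -0.85 without 1 array), -0.80 with the 75th percentile over bright probes (above background everywhere), -0.57 with normexp and 0.037 with spike-in centring. The median difference of 24 h against 6 h was 0.10 (-0.14 to 0.26 without 1 array) and 0.85 with spike-in centring. The single differences that reversed were CCND2 (0.054) and SRSF11 (0.064 and 0.10) with spike-in centring, and CD3G (-0.16) and calcineurin A gamma-like (-0.022) with normexp. The number with the lower mean at 6 h than at 24 h was 126, and 61 without 6 h replicate 3, an alternative chosen after seeing the data. The cause of these shifts was not tested. For 6 h against before feeding the count past an adjusted p of 0.05 was 5; it was 8 with quantile normalization or the deposited values, 46 with spike-in centring and 0 with the 75th percentile over bright probes, normexp, no filter, only probes above background on all 9 arrays, trend and robust, or only the arrays compared. Array weights, which put 8.27 on before-feeding replicate 3 and 0.27 to 3.45 on the others, gave 9889. Without 1 array the count was 0 to 2396, the top value without 6 h replicate 2. For 24 h it was 0, also without any 1 array, but 6 with quantile normalization or the deposited values, 3429 with spike-in centring and 5450 with array weights. For 24 h against 6 h it was 0, with 5771 by array weights and 0 to 1767 without 1 array, the top value without 6 h replicate 2. Same-numbered arrays share only a number: with it as a replicate block, 620 probes passed at 6 h and 0 in the other comparisons, and not every array correlated best with its own number. Weak probes limit the choice, since 12 of the 200 were not well above background on all 3 arrays at 6 h.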
